A study of Mus musculus with 40 samples.

Results

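The major urinary protein (Mup) genes of liver were described in offspring of nicotine-exposed and control fathers. Of 22 Mup symbols without a pseudogene suffix in the 2 liver tables, the 10 with the highest mean normalized count over both tables were taken: Mup3, Mup11, Mup20, Mup21, Mup17, Mup16, Mup12, Mup18, Mup1 and Mup9. The liver tables hold 15513 genes in all. Mup9 was just inside the rule with a mean of 56.3 normalized counts, and Mup7 just outside with 43.3. The members were chosen by these mean liver levels, which are given as a description. All 10 members were listed in both liver tables, and all 10 passed the filter of a mean of 10 or more in each.

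The study sequenced short 3′ tags of polyadenylated RNA of C57BL/6J mice, from liver and from the gonadal depot of white fat (gWAT). The labels place 40 samples in 8 groups of 5. In the order used here these are male liver, female liver, male gWAT and female gWAT, each after paternal nicotine and after paternal control exposure, which the tables call DMSO. Male gWAT has 4 control columns, and 39 libraries were analysed. All samples carry the same genotype, C57BL/6J, and the same batch number. The labels give no age, dose or exposure time, and tie no sample to an animal, litter or father. P-values therefore reflect the spread among these samples alone, and that spread may be technical. Liver libraries held 1566895 to 2152027 reads assigned to genes. All 12 hepatocyte markers were listed in both liver tables, and Ddx3y, a Y-linked gene, had 270 to 332 normalized counts in male nicotine livers and 281 to 322 in male control livers.

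Major urinary proteins are small secreted lipocalins, barrel-shaped carriers of hydrophobic molecules. Mouse liver makes them and releases them into blood, the kidney passes them into urine, and there they bind volatile pheromones and act as scent signals themselves. They are known for male-biased expression, which depends on the pulsed pattern of growth hormone in males and is also supported by androgen, thyroid hormone and glucocorticoid. Mup20, also called darcin, is the member known as a male pheromone that attracts females. The genes arose by recent duplication, and many copies are nearly identical.

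In the GENCODE M21 annotation of GRCm38, 22 Mup genes and 26 Mup pseudogenes lie in one cluster of 2.19 Mb on chromosome 4, from 59956804 to 62150863. All 10 members are annotated as protein coding on the minus strand. Mup9 (60418046 to 60421952), Mup1, Mup11 and Mup12 begin 461 to 781 kb from the cluster's start. Mup16, Mup17 and Mup18 begin 1559 to 1713 kb from it. Mup20 (62050234 to 62054158), Mup3 (62083476 to 62087342) and Mup21 (62147932 to 62150863) lie next to each other at the far end of the cluster. These 3 genes also differ in sequence from the other 7 members. Over annotated transcripts, the other 7 members were 98.3% to 99.7% identical in pairs (median 98.96%), whereas pairs of 1 of the 7 with Mup3, Mup20 or Mup21 were 82.4% to 91.1% identical (median 85.8%). Mup3 and Mup21 were 96.1% identical to each other. Mup20 was 88.2% identical to Mup3 and 87.7% to Mup21, but 90.2% to 91.1% to the 7. Mup3, Mup20 and Mup21 are called the 3 far-end genes below, by position and not as 1 sequence class, and the other 7 the close copies.

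Promoter sequences from RefSeq (GRCm38.p6) were matched for 6 of the 10 members, each with 250 bases before and 50 after the annotated start, on the minus strand. 4 are printed to show how the closely related copies differ from the far-end genes. They are Mup11 (chr4:60662346-60662645), Mup17 (chr4:61595783-61596082), Mup3 (chr4:62087268-62087567) and Mup21 (chr4:62150792-62151091). Capitals mark matches to the TATA box letters TATATAA, to ATCAATAA, the core of ONECUT factor motifs, and to TGTTCT, letters found in sites bound by androgen and glucocorticoid receptors.
Mup11: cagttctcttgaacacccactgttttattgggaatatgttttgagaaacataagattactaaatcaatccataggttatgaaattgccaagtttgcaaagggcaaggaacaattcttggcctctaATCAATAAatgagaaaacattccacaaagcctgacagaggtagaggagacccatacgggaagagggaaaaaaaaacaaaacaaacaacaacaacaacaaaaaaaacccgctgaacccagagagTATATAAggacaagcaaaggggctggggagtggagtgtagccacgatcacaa
Mup17: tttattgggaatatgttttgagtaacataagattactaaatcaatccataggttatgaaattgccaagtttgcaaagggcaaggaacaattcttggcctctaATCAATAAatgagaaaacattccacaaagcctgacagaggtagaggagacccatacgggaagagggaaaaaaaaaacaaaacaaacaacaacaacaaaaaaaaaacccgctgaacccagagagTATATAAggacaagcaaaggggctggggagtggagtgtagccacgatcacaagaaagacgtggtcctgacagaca
Mup3: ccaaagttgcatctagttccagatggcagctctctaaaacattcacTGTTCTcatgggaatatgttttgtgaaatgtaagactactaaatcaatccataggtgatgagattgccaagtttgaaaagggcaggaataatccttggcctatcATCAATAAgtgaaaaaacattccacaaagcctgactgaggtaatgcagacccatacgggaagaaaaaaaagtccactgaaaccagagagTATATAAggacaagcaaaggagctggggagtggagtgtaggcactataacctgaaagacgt
Mup21: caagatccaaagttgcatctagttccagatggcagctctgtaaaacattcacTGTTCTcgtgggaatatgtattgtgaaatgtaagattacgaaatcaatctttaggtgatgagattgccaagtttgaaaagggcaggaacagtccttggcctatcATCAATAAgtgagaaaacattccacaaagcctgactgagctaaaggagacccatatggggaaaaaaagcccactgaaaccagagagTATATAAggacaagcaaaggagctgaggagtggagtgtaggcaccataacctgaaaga
The Mup11 and Mup17 windows were 99.6% identical over 276 aligned bases, and the Mup3 and Mup21 windows 93.9% identical over 294. Between the pairs, Mup11 and Mup3 were 86.8% identical. Both strands were searched. TATATAA and ATCAATAA were found in all 6 member windows, against 3.25% and 0.719% of 32817 promoters of the same length in the table. TGTTCT was found in 2 of the 6, the Mup3 and Mup21 windows, against 19.0% of all promoters. The windows are offset, because the annotated starts differ: TATATAA begins at base -2 in Mup11 and at base -31 in Mup9. Those of Mup17 and Mup9 begin too late to cover the whole stretch that lines up with the Mup3 TGTTCT, so they cannot show whether it is there. TTCNNNGAA, the letters of the site for STAT5, which carries the growth hormone signal, was in 0 of the 6 windows and in 8.29% of all promoters. In these searches a match is a description of letters in a short window, and the absence of a match says only that the letters are not there.

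The identity of the copies bears on the counts, because the reads come from transcript ends and no source used here states how the authors treated reads that match several genes. In the last 300 bases of Mup1, 100% of 100-base windows also occur in another Mup gene or pseudogene transcript, so its reads and those of its copies cannot be told apart. For Mup12, Mup16 and Mup18 this share was 75.1%, 67.7% and 67.7%. It was 43.3% for Mup9, 36.3% for Mup11 and 6.97% for Mup17. For Mup3, Mup20 and Mup21 it was 0%, and of shorter, 50-base windows 6.37%, 7.17% and 17.9% were shared. The counts of the 7 close copies are therefore uncertain one by one, and those of the 3 far-end genes less so. Strand use is not stated either, so reads from a gene and from an antisense partner cannot be separated.

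In male liver, all 10 genes were lower on average in the nicotine group, and 2 of its 5 libraries, numbers 1 and 5, carried that difference. No member passed the limma test (0 of 10 at a Benjamini-Hochberg adjusted p below 0.05, adjusted p 0.323 to 0.471), against 0.055% of 9093 tested genes. One member, Mup20, had an unadjusted p below 0.05 (1 of 10), against 14.5% of tested genes. The edgeR quasi-likelihood test and DESeq2 each called 0 of 10, with 0 at an unadjusted p below 0.05. Log2 changes are differences of group means (nicotine minus control) of log2(normalized count + 1). They ran from -3.26 to -0.82 with a median of -2.16, against 3.30e-06 over all tested genes. The added 1 understates the change of genes with low counts. Averaging logs, however, gives very low libraries more weight than a ratio of mean counts does. For Mup11 the log2 change was -3.26, while the nicotine mean count was 0.547 of the control mean. The changes fitted by the count tests were smaller in size, with a median of -0.62 over the 10 by edgeR and -0.61 by DESeq2, and -0.87 for Mup11 by each. In bulk liver, fewer hepatocytes and less RNA per hepatocyte cannot be told apart.

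Mup3, the member with the highest mean normalized count, had 525, 11693, 11880, 12486 and 1345 normalized counts in male nicotine libraries 1 to 5. It had 12667, 10969, 9413, 11776 and 10771 in male control libraries 1 to 5. Nicotine libraries 2, 3 and 4 lay within the control range and libraries 1 and 5 far below it. The means were 7586 ± 6085 in the nicotine group and 11119 ± 1213 in controls (SD, n = 5 each), a log2 change of -1.42 (SE 0.75, limma adjusted p = 0.403).

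Mup20, the darcin gene, had 1098, 3592, 4133, 4905 and 1555 normalized counts in male nicotine libraries 1 to 5. It had 4682, 6222, 3401, 4719 and 4633 in male control libraries 1 to 5. The same 2 nicotine libraries were lowest, but they kept 23.2% and 32.9% of the control mean, the highest shares of any member. The means were 3057 ± 1655 in the nicotine group and 4731 ± 1001 in controls (SD, n = 5 each), a log2 change of -0.82 (SE 0.36, limma adjusted p = 0.323), the member of smallest p.

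Mup21, the third far-end gene, had 50.02, 1763, 1646, 2071 and 114 normalized counts in male nicotine libraries 1 to 5, against 2297, 2826, 1221, 2116 and 1415 in male control libraries 1 to 5. Libraries 1 and 5 held 2.53% and 5.76% of the control mean. The log2 change was -1.88 (SE 0.89, limma adjusted p = 0.353).

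Among the close copies, Mup11 had the highest counts. It had 4206, 6892 and 6314 normalized counts in male nicotine libraries 2, 3 and 4, and 17.7 and 16.4 in libraries 1 and 5. Male control libraries 1 to 5 had 5130, 13694, 2446, 5293 and 5323. Libraries 1 and 5 held 0.277% and 0.257% of the control mean, 361-fold and 389-fold lower, on 24 and 20 reads. The log2 change over all libraries was -3.26 (SE 1.59, limma adjusted p = 0.364), the most negative of the 10.

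Mup17 had 3.68, 900, 1886, 1537 and 4.91 normalized counts in male nicotine libraries 1 to 5, against 1337, 2759, 511, 629 and 1271 in male control libraries 1 to 5. Its 2 low values rest on 5 and 6 reads, and they were 354-fold and 265-fold under the control mean. The other 3 nicotine libraries lay inside the control range, and the log2 change was -2.87 (SE 1.55, limma adjusted p = 0.412).

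The remaining 5 copies were nearly undetected in the same 2 libraries. Mup1 had 0 reads in both, where the limit that a count of 0 allows, 3 reads per library, makes it at least 60.1-fold and at least 54.0-fold lower than the mean of 133 ± 101.1 normalized counts in male controls (SD, n = 5). Mup12 had 2 and 0 reads, Mup16 had 2 and 1, Mup18 had 0 and 4, and Mup9 had 1 and 3 in libraries 1 and 5. In the other 8 male liver libraries, Mup12 had 76.2 to 315, Mup16 had 110 to 423, Mup18 had 27.5 to 379 and Mup9 had 54.1 to 133 normalized counts. Their log2 changes over all libraries were -1.85 for Mup9, -1.95 for Mup18, -2.37 for Mup1, -2.45 for Mup16 and -2.62 for Mup12.

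For all 10 members, nicotine libraries 1 and 5 were the 2 lowest of the 10 male liver libraries, against 14.8% of the 9093 tested genes. For 7 members both were at or below 10% of the lowest other library, against 0.605% of tested genes. The 3 exceptions were Mup20, Mup3 and Mup18, whose higher value of the 2 libraries stood at 45.7%, 14.3% and 11.9% of the lowest other library. The 2 libraries were singled out by their values, so these shares are descriptions with no test. For 0 of 10 members did the nicotine and control libraries fail to overlap, against 3.16% of tested genes.

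**Figure D1:**
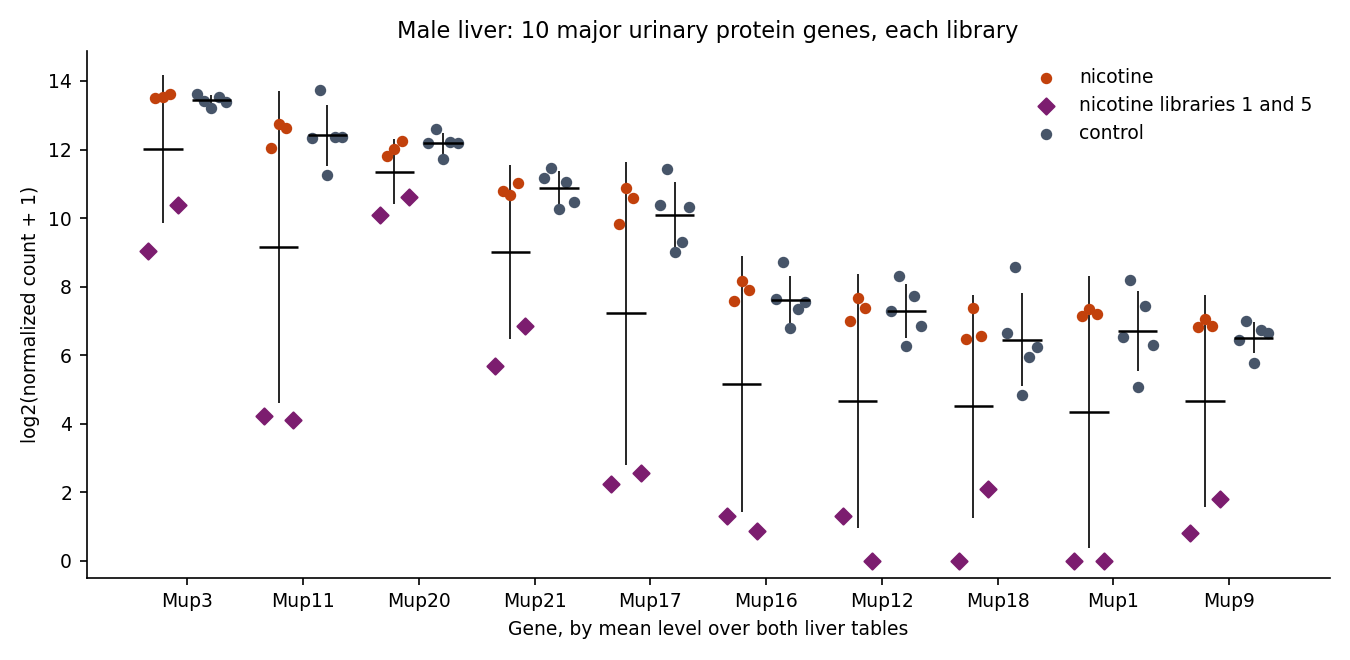
Each point is 1 male liver library, with nicotine left of control for each gene; the vertical axis is log2(normalized count + 1), horizontal lines are group means and vertical lines 1 SD (n = 5 each). Diamonds mark nicotine libraries 1 and 5, which lie below the other 8 libraries for all 10 genes, while nicotine libraries 2, 3 and 4 lie among or near the controls.

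The makeup of the Mup reads differed in these libraries as well. The 10 genes summed to 1699, 22809, 27382, 28070 and 3042 normalized counts in male nicotine libraries 1 to 5, against 26744, 38002, 17294, 25241 and 23965 in male control libraries 1 to 5. Of the members' reads, Mup20 gave 64.7% and 51.1% in nicotine libraries 1 and 5 and 15.1% to 19.7% in the other 8. Mup11 gave 1.04% and 0.538% in those 2 libraries and 14.1% to 36.0% in the other 8. Mup3 gave 30.9% and 44.2% there, inside the 28.9% to 54.4% of the other 8. In all male liver libraries at least 99.1% of all Mup reads came from the 10 members.

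**Figure D2:**
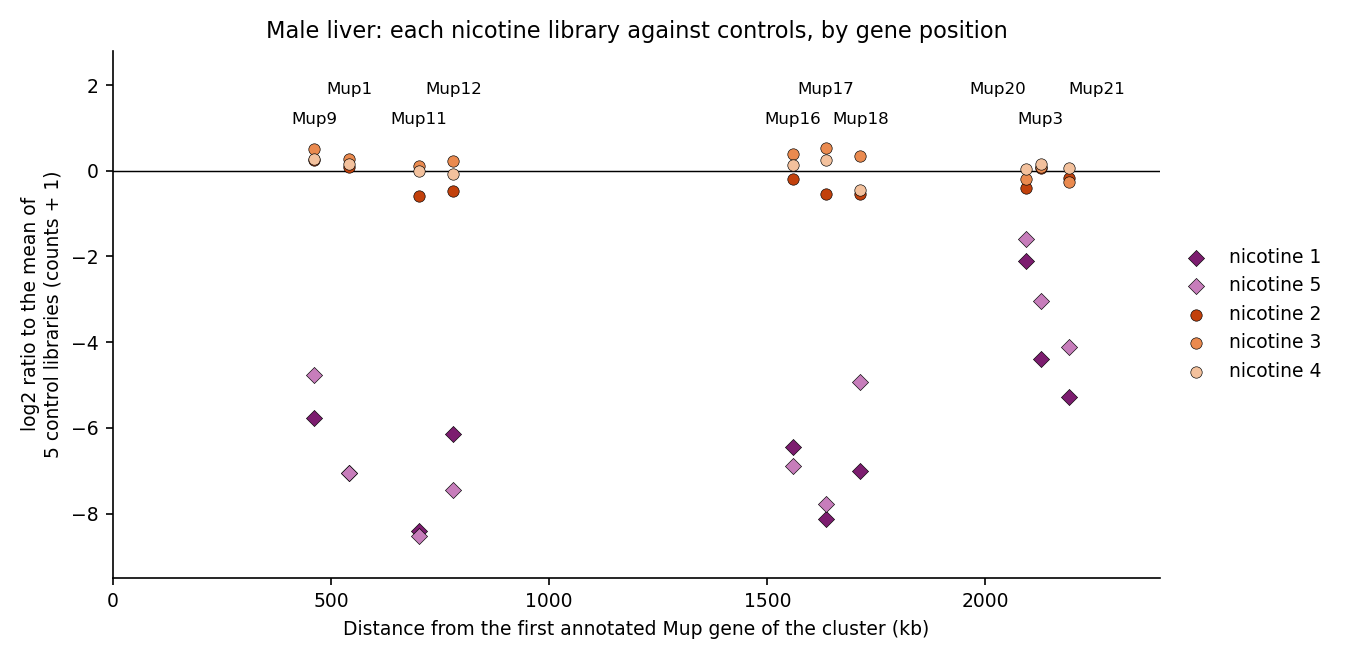
Each point is 1 gene in 1 male nicotine liver library, placed by distance in kb from the first annotated Mup gene; the vertical axis is the log2 ratio of (normalized count + 1) to the mean of the 5 control libraries. In nicotine libraries 1 and 5 the 3 far-end genes at the right lie between -5.28 and -1.60, and the 7 close copies between -8.52 and -4.78; libraries 2, 3 and 4 lie near 0.

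Genes beside the cluster were examined in the same libraries. Within 500 kb on either side the annotation holds 20 other protein-coding genes, of which 11 were tested in male liver. Of these 0 were called by limma, against 0.055% of all tested genes. Their log2 changes ran from -0.29 to 0.32. Nicotine libraries 1 and 5 were both below the other 8 for 2 of the 11, against 14.8% of all tested genes. These were Slc31a1, a copper importer, and Alad, an enzyme of haem synthesis. Slc31a1 had 193 and 200 normalized counts in these 2 libraries and 248 to 357 in the other 8.

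Without nicotine libraries 1 and 5, 8 members were higher and 2 lower in the male nicotine group on the log2 scale, whereas by mean normalized count 5 were higher and 5 lower. The log2 changes were then -0.15 to 0.52 with a median of 0.19 (3 nicotine and 5 control libraries), against 0.01 over all tested genes. None passed (0 of 10 by limma, adjusted p 0.494 to 0.967), against 0.0671% of 8944 tested genes, and 0 had an unadjusted p below 0.05, against 12.1%. Mup9 had the smallest p, with a log2 change of 0.40 (SE 0.22, limma adjusted p = 0.494). Mup20 was at -0.15 and Mup21 at -0.05. When only 1 library was left out, all 10 changes stayed negative, and that of Mup11 ran from -4.16 to -2.01.

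**Figure D3:**
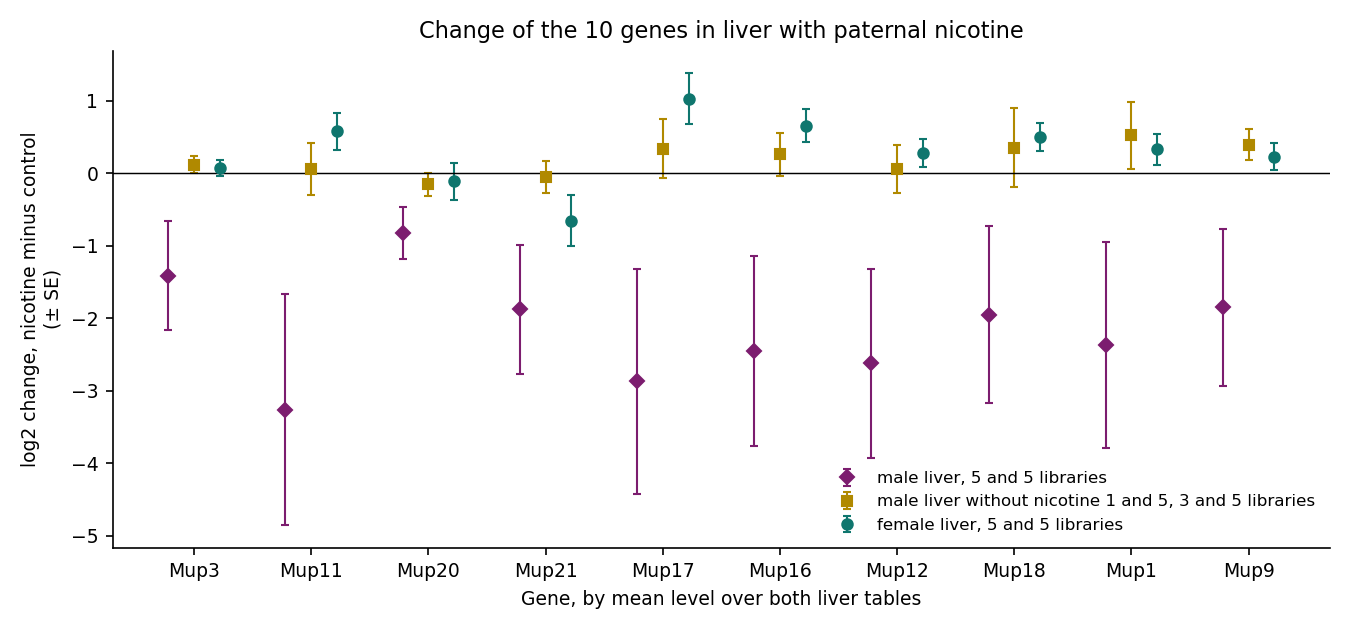
Points are log2 changes, nicotine minus control, with 1 SE, for each of the 10 genes in male liver with all libraries (diamonds), in male liver without nicotine libraries 1 and 5 (squares) and in female liver (circles). With all male libraries the changes lie between -3.26 and -0.82; without the 2 libraries they lie between -0.15 and 0.52, and in female liver between -0.65 and 1.03.

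Other values of nicotine libraries 1 and 5 stood beside these. The 4 Y-linked genes measured, Ddx3y, Eif2s3y, Kdm5d and Uty, were present in both. The summed hepatocyte markers (12 of 12 tested) were 114396 and 114587 normalized counts in libraries 1 and 5 and 129652 to 157365 in the other 8. Albumin itself was 29110 and 28864 there and 32218 to 41826 in the other 8. Set against albumin, the Mup sum was 58.3 and 105 per 1000 albumin counts in the 2 libraries and 413 to 1180 in the other 8.

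Each marker sum covers every marker of its set that is listed for that sex, tested or not. Whether the reads of a marker came from the cell type it is named for was not tested. The summed Kupffer cell and macrophage markers (14 of 14 listed, 12 tested) were 876 and 817 normalized counts in libraries 1 and 5 and 358 to 560 in the other 8. Bile duct markers (6 of 8 listed, 3 tested) summed to 711 and 706, against 330 to 558, with Krt7 and Cldn7 not listed. Stellate cell and fibroblast markers (11 of 11 tested) summed to 2381 and 2048, against 812 to 2083. Sinusoidal endothelium markers (9 of 10 tested) were lower in libraries 1 and 5, at 748 and 772, against 869 to 1141 in the other 8. Adipocyte markers (9 of 10 listed, 7 tested) summed to 2002 and 1594, against 1913 to 2897. Of 7 salivary and lacrimal gland markers only 1 was listed, Amy1, at 277 and 287, against 376 to 488. Alone it does not show that such tissue was present. Cd3e and Cd4, defining markers of T lymphocytes, were not listed in the male liver table. Nicotine library 2 held 11747 normalized counts of exocrine pancreas markers and library 4 held 7103 of skeletal muscle markers, and both had Mup levels in the control range. The part of these markers in the Mup result was not tested.

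Of the male-biased liver genes listed beside the Mup family, 23 of 28 were tested in male liver, 0 were called in either direction by limma, and 6 had an unadjusted p below 0.05, against 0.055% and 14.5% of all tested genes. Their median log2 change was -0.96, with 22 lower and 1 higher. Nox4, an NADPH oxidase, averaged 67.4 ± 35.6 normalized counts in male nicotine livers and 108 ± 23.0 in male controls (SD, n = 5 each, log2 change -0.84, limma adjusted p = 0.297). Susd4, a complement regulator, Elovl3, a fatty acid elongase, and Cyp4a12a, a fatty acid hydroxylase, had log2 changes of -2.42, -2.87 and -1.52. Without nicotine libraries 1 and 5 the list's median was -0.06, with 12 of 25 higher and 13 lower. Of 29 female-biased genes 11 were tested, 0 were called, 5 were higher and 6 lower, with a median of -0.05.

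Genes of the growth hormone pathway were measured in the same libraries. Only 0.055% of all tested genes were called in male liver by limma, so 0 called in a short list says little about that list. Of 21 listed, 19 were tested and 0 were called in male liver, 11 higher and 8 lower, with a median log2 change of 0.12. Ghr, the growth hormone receptor, had 247 and 295 normalized counts in nicotine libraries 1 and 5, against 499 to 797 in the other 8 (log2 change over all libraries -0.59, SE 0.27, limma adjusted p = 0.342). Stat3, a transcription factor of cytokine signalling, Irs1, an insulin receptor adaptor, and Igfbp3, a carrier of insulin-like growth factors, had log2 changes of 0.47, 0.52 and 0.56. Of 22 transcription regulators tied to sex-biased liver expression, 20 were tested and 0 called, with 5 higher, 15 lower and a median of -0.09. Nr1i3, the nuclear receptor CAR, had 26.5 and 11.5 normalized counts in nicotine libraries 1 and 5, against 36.3 to 103 in the other 8 (log2 change -1.07, limma adjusted p = 0.263). Cebpa and Foxa3, hepatocyte transcription factors, were at -0.50 and -0.41.

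Genes that respond to thyroid hormone or glucocorticoid gave 13 tested of 15 in male liver. Of these 0 were called, 5 were higher and 8 lower, with a median of -0.12. For this list and those that follow, the share called over all tested genes of male liver was 0.055%. Mt2 and Mt1, metallothioneins that bind metals, had log2 changes of 1.66 and 1.42, and Zbtb16, a glucocorticoid-induced repressor, of -0.83 (limma adjusted p = 0.146, 0.161 and 0.146). Sgk1, a kinase induced by glucocorticoid, was at 0.75. Of 13 other lipocalin family genes 5 were tested, 0 were called and all 5 were lower, with a median of -0.22. Rbp4, the carrier of retinol, had 4734 and 4963 normalized counts in nicotine libraries 1 and 5, against 7011 to 8979 in the other 8. Of 25 other secreted plasma proteins, 0 were called, 5 were higher and 20 lower, with a median of -0.15. Plg, plasminogen, was at -0.45 and Hpx, a haem carrier, at 0.50.

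The genes outside the family whose male liver profile lay nearest to that of the log2 Mup sum were Cyp2d9, Hectd2os, Serpina1e, Cyp2c50 and Cyp2d40. The measure was the root mean square distance of the centred log2 profiles over the 10 male liver libraries among 6986 genes with a mean of 20 or more, 0.28 for Cyp2d9 to 0.40 for Cyp2d40. Cyp2d9, a male-biased steroid hydroxylase, had 118 and 242 normalized counts in nicotine libraries 1 and 5, against 856 to 1812 in the other 8. Cyp2c50, a cytochrome P450, had 91.2 and 69.6 there and 892 to 1157 in the other 8. Serpina1e, a serine protease inhibitor with near-identical copies, had 1471 and 4276 there and 8662 to 23701 in the other 8. Over the 8 other male libraries alone, the highest Pearson r with the Mup sum were 0.92 for Trappc2b, 0.91 for Polb and 0.91 for Mak16. They are the highest of 6986 genes over only 8 libraries, given as a description. These 3 had 13.3 to 73.8 normalized counts in those 8 libraries, and the 8 share library depth and normalization.

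Among those 8 male libraries the members also varied together. Between pairs of the 7 close copies the Pearson r of log2 values was 0.65 to 0.99 (median 0.86, 21 pairs). Between 1 of the 7 and 1 far-end gene it was 0.40 to 0.89 (median 0.69). In the 10 female liver libraries the 7 copies again had r of 0.59 to 0.93 with each other (median 0.78). Their r with the far-end genes was -0.68 to 0.43 (median -0.10). These libraries share depth and normalization, and reads may be shared among the 7 copies, so the correlations are descriptions.

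In female liver the members were low except Mup3, and the nicotine and control libraries overlapped for all 10. None was called (0 of 10 by limma, adjusted p 0.115 to 0.867), against 3.28% of 9173 tested genes. 4 of 10 had an unadjusted p below 0.05 by limma, against 17.6% of tested genes. By edgeR it was 3 and by DESeq2 2, and both called 0. The 4 by limma, Mup11, Mup17, Mup16 and Mup18, are all close copies that may share reads, so they are not independent. Groups did not overlap for 0 of 10 members, against 4.73% of tested genes. The median log2 change of the 10 was 0.31, against -0.0045 over all tested genes, with 8 higher and 2 lower.

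The 7 close copies all had higher means in the female nicotine group. They varied together and may share reads, so they do not count as 7 separate results. Mup17 had 135, 367, 201, 301 and 232 normalized counts in female nicotine libraries 1 to 5, against 343, 63.7, 156, 62.8 and 88.3 in female control libraries 1 to 5. 4 of 5 nicotine libraries lay above the control mean, but control library 1 lay above 4 of the nicotine libraries. The means were 247 ± 89.8 in the nicotine group and 143 ± 118 in controls (SD, n = 5 each), a log2 change of 1.03 (SE 0.35, limma adjusted p = 0.115). Leaving out 1 library at a time gave changes of 0.82 to 1.43 (limma adjusted p 0.00498 to 0.253). Only the largest, without female control library 1, passed.

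Mup16 had 95.3, 198, 211, 237 and 121 normalized counts in female nicotine libraries 1 to 5, against 163, 89.7, 118, 96.1 and 69.2 in female control libraries 1 to 5. In the nicotine group 3 of 5 libraries lay above all controls, and the log2 change was 0.66 (SE 0.23, limma adjusted p = 0.126). Leaving out 1 library at a time gave changes of 0.52 to 0.85 (limma adjusted p 0.0316 to 0.299). Only the largest, without nicotine library 1, passed.

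Mup18 had 81.6, 128, 96.7, 121 and 96.1 normalized counts in female nicotine libraries 1 to 5, against 130, 73.3, 70.0, 50.4 and 59.1 in female control libraries 1 to 5. All 5 nicotine libraries lay above the control mean of 76.6. All 5 lay on the same side of the control mean for 25.5% of tested genes. The log2 change was 0.51 (SE 0.19, limma adjusted p = 0.168). Leaving out 1 library at a time gave changes of 0.38 to 0.72 (limma adjusted p 0.0167 to 0.347). Only the largest, without control library 1, passed.

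Mup11 averaged 41.7 ± 9.79 normalized counts in female nicotine livers and 29.4 ± 15.2 in female controls (SD, n = 5 each, log2 change 0.58, limma adjusted p = 0.240). Mup1, Mup12 and Mup9 had log2 changes of 0.33, 0.28 and 0.23. The 3 far-end genes differed in sign among themselves. Mup3 averaged 2786 ± 290 in the nicotine group and 2673 ± 496 in controls (SD, n = 5 each), a log2 change of 0.07, which was -0.02 without control library 3. Mup20 was at -0.11, and at 0.11 without control library 4. Mup21 had 14.7, 4.75, 21.5, 13.1 and 23.8 normalized counts in female nicotine libraries 1 to 5, against 18.4, 40.5, 12.5, 27.6 and 20.9 in female control libraries 1 to 5. All 5 lay below the control mean of 24.0, with a log2 change of -0.65 (SE 0.35, limma adjusted p = 0.351).

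**Figure D4:**
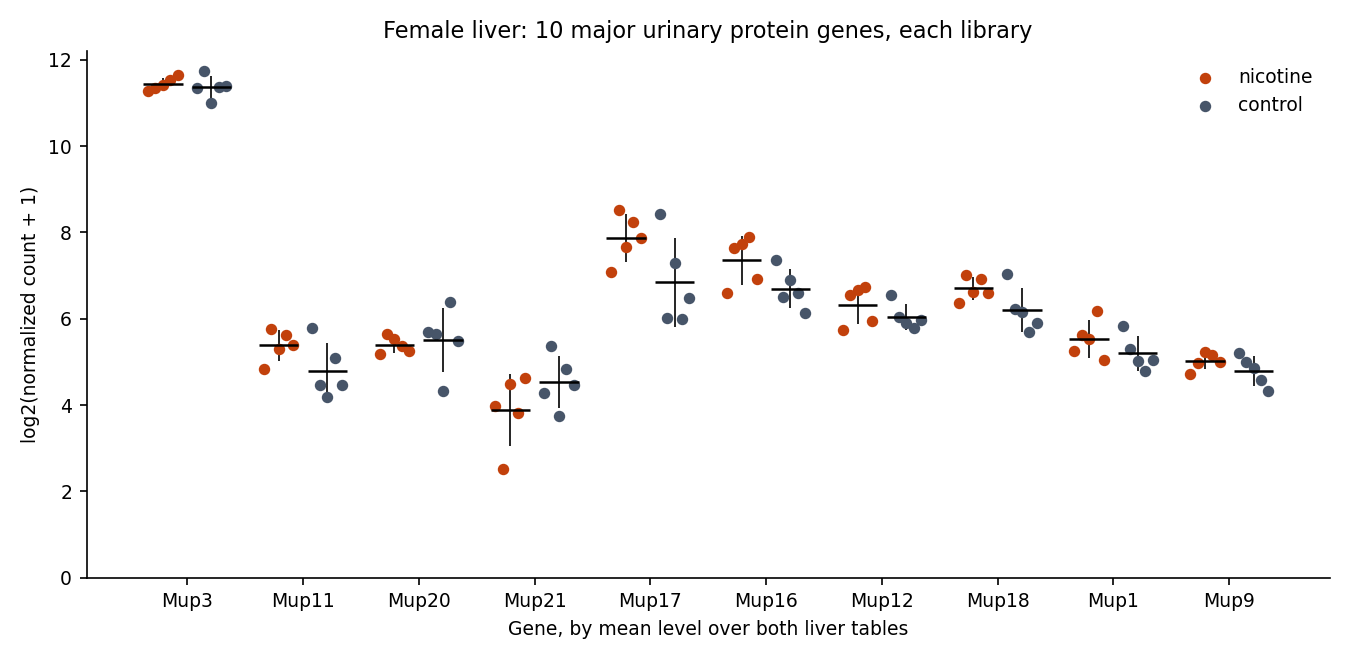
Each point is 1 female liver library, with nicotine left of control for each gene; the vertical axis is log2(normalized count + 1), horizontal lines are group means and vertical lines 1 SD (n = 5 each). The groups overlap for all 10 genes, and Mup3 lies far above the rest.

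Some marker sums separated the female groups. For the calls of single markers given here, the share over all tested genes was 3.28% in either direction. Adipocyte markers (9 of 10 listed, 5 tested, Lep not listed) summed to 1905 to 2398 normalized counts in female nicotine livers and 804 to 1653 in female controls. Car3 among them was called (log2 change 0.80, limma adjusted p = 0.00245). Whether the reads of Car3 and the others of this set came from adipocytes or from liver cells was not tested. Sinusoidal endothelium markers (9 of 10 tested) summed to 898 to 1025 in nicotine livers and 1115 to 1255 in controls, with Lyve1 called lower (log2 change -0.92, limma adjusted p = 0.0156). Bile duct markers (4 of 8 listed, 3 tested) summed to 317 to 377 in nicotine livers and 383 to 542 in controls, with 1 called lower. Hepatocyte marker sums overlapped. Of 12 tested hepatocyte markers, 2 were called higher, Tat and Hpx, and 0 lower, against 3.28% of all tested genes called in either direction. Tat and Hpx are also members of gene lists described below. The part of these markers in the Mup values was not tested. Skeletal muscle markers reached 351 in nicotine library 5 and 217 in control library 4, and were at most 24.6 elsewhere. Without these 2 libraries 9 members were higher and 1 lower on the log2 scale (8 and 2 by mean normalized count), and 0 of 10 were called, against 1.98% of 9126 tested genes.

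Some of the listed regulators were called in female liver. Tsc22d3, a glucocorticoid-induced leucine zipper protein, averaged 195 ± 46.9 normalized counts in female nicotine livers and 72.2 ± 9.80 in female controls (SD, n = 5 each, log2 change 1.39, limma adjusted p = 3.77e-05). Its change in male liver was -0.39, and the difference between the sexes passed (male minus female -1.77, SE 0.29, limma adjusted p = 0.00324). Tat, a glucocorticoid-induced enzyme of tyrosine breakdown, rose as well (log2 change 0.82, limma adjusted p = 0.0161), so that 2 of 13 tested thyroid and glucocorticoid response genes were called higher and 0 lower, against 3.28% of all tested genes called in either direction. Among 21 sex-bias regulators, Cebpb rose (log2 change 0.46, limma adjusted p = 0.0128) and Cebpa fell (log2 change -0.39, limma adjusted p = 0.0446). These were 1 called higher and 1 called lower of 21 tested, against the same 3.28%. Of 20 growth hormone pathway genes 0 were called, against the same 3.28%. Ghr was at 0.25 (limma adjusted p = 0.115) and Stat5b at -0.25.

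Of 26 tested female-biased genes 1 was called higher, Sult2a2, a sulfotransferase, and 3 lower, Nipal1, Cyp4a10 and Cyp2c40, against 3.28% of all tested genes called in either direction. The median log2 change of the 26 was 0.18. Cyp4a10, a fatty acid hydroxylase, averaged 1071 ± 440 normalized counts in female nicotine livers and 2033 ± 629 in female controls (SD, n = 5 each, log2 change -0.94, limma adjusted p = 0.0262). Of 13 tested male-biased genes 0 were called, against the same 3.28%, with a median of -0.03. Of 25 plasma proteins 2 were called higher, Hpx (log2 change 0.74, limma adjusted p = 0.00277) and Gc, the vitamin D carrier (log2 change 0.39, limma adjusted p = 0.00701), and 0 lower, against the same 3.28%. Of 5 tested lipocalins 0 were called, again against 3.28%. Of 7025 genes, those with the highest Pearson r with the log2 Mup sum over the 10 female libraries were Banp (0.89), Zyg11b (0.88) and Ero1b (0.88). These are the top of a search over many genes and few libraries, given as a description.

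The nicotine difference was also compared between the sexes as male minus female change over the 20 liver libraries. For all 10 members this difference was negative, from -3.90 for Mup17 to -0.71 for Mup20, with a median of -2.58. The median was -1.06 by edgeR and -1.02 by DESeq2. None passed (0 of 10 by limma, adjusted p 0.269 to 0.596), against 1.53% of 9149 tested genes. Mup11, Mup16 and Mup17 (3 of 10) had an unadjusted p below 0.05 by limma, against 16.1% of tested genes. These 3 are close copies that may share reads. The edgeR and DESeq2 tests each called 0, with 0 at an unadjusted p below 0.05. Without male nicotine libraries 1 and 5, Mup3, Mup21, Mup1 and Mup9 turned positive, with values of 0.05, 0.60, 0.19 and 0.17.

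The authors' deposited table for male liver gives log2 fold changes of -0.49 to -0.09 for the 10 genes, with adjusted p of 0.406 to 0.927. Mup20 has the most negative value in the authors' deposited table, -0.49. The authors' deposited table for female liver gives -0.37 to 0.44, with adjusted p of 0.276 to 0.895. Whether these fold changes were shrunken is not stated.

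Levels were set side by side across the 4 tables in RPM, recovered reads of a gene per 1000000 reads of its library, with no test, since the tables were normalized separately. In liver, nicotine groups averaged 8683 ± 6560 RPM in the Mup sum in males and 1840 ± 183 in females (SD, n = 5 each). Control groups averaged 13801 ± 3786 in males and 1632 ± 242 in females (SD, n = 5 each), an 8.46-fold difference between the sexes. Among controls, the male level of Mup11 was 226-fold, of Mup20 100-fold and of Mup21 85.7-fold the female level. Mup17 followed at 9.52-fold, Mup3 at 4.34-fold, Mup1 at 3.74-fold, Mup9 at 3.58-fold, Mup12 at 2.73-fold, Mup16 at 2.10-fold and Mup18 at 1.74-fold. The Mup18 value rests on male control library 2, without which it was 0.893-fold, and that of Mup17 was 14.5-fold without female control library 1. The male and female control libraries overlapped for Mup16, Mup12, Mup18 and Mup1 and did not for the other 6. The share of all genes without such an overlap between the sexes was not computed, so this is a description.

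Male nicotine libraries 1 and 5 lay above, within or below the female levels, depending on the gene. Mup20 was at 740 and 1010 RPM in them, above the 9.72 to 42.5 of the 10 female liver libraries. Mup21, at 33.7 and 73.9, was also above the female range of 2.50 to 20.3. Mup11, at 11.9 and 10.6, lay within the female range of 8.75 to 28.0. Mup3, at 354 and 874, lay below the female range of 1038 to 1719. Mup17, at 2.48 and 3.19, was also below the female range of 31.9 to 193, as were Mup16, Mup12, Mup18, Mup1 and Mup9.

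In gWAT the sum was far lower. It was 11.8 to 96.0 RPM in male nicotine libraries and 63.4 to 150 in male controls, and 8.93 to 93.0 in female nicotine libraries and 16.6 to 55.7 in female controls. The groups overlapped in both sexes. Male nicotine gWAT library 1 stood out with a Mup20 level of 56.7 RPM, against 1.74 to 18.6 in the other 8 male gWAT libraries. The same library held 1866 normalized counts of albumin, against 99.7 to 384 in the other 8, and the part of liver transcripts in the gWAT values was not tested. In male gWAT the authors' deposited table calls 0 of the 9 members that have an adjusted p there, against 0% of 17983 genes. In female gWAT the authors' deposited table likewise calls 0 of 9, against 18.9% of 15321 genes.

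**Figure D5:**
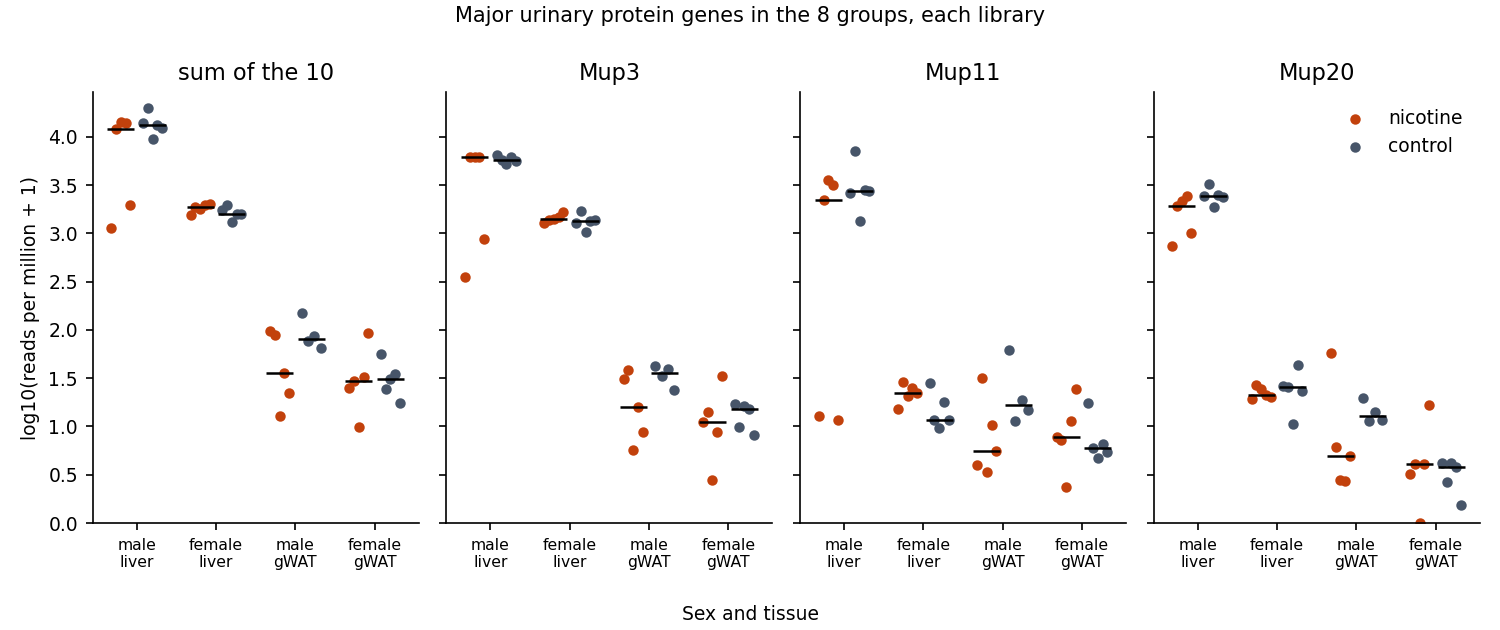
Each point is 1 library, with nicotine left of control within each sex and tissue; the vertical axis is log10(RPM + 1) for the sum of the 10 genes, Mup3, Mup11 and Mup20, and horizontal lines are group medians. For the sum, male liver lies highest apart from 2 nicotine libraries, and gWAT lies lowest; for Mup11 and Mup20 some gWAT libraries reach the level of female liver.

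Of the 12 other Mup symbols in the liver tables, Mup7 had 0 to 120 normalized counts in male nicotine livers and 46.1 to 171 in male controls, and at most 2.95 in female livers. Mup10, listed in the female table, had 22.6 to 36.0 in female nicotine livers and 11.5 to 28.2 in female controls. Mup13 had 4.91 to 9.51 in female nicotine livers and 0 to 3.64 in female controls. Mup14 had 0 to 34.6 in male nicotine livers and 8.86 to 32.7 in male controls, and Mup22 had 1.47 to 23.0 and 17.9 to 39.6 in the same groups. The remaining 7 were at most 10.9 normalized counts in every liver library.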

How the data were processed

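3′-tag RNA-seq of liver and gWAT was analysed from the 4 deposited tables, 1 per tissue and sex. Per the submitters' processing notes, the tools were cutadapt, STAR and DESeq2, with the mm10 genome. No source used here states the counting step, the annotation, the use of strand or the handling of reads that match several genes. Per the file headers, the authors deposited normalized counts, a signal in which each library's gene counts are scaled by its DESeq2 size factor, with their log2 fold change, p-value and adjusted p-value. Whole reads were recovered from the steps of the values (100% of values whole within 0.1 reads in every library), and depth was 1543208 to 2239073 reads per library. Floors cover counting error only. No 2 libraries of a group were alike within sampling noise (chi-square per gene at least 2.26).

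Genes averaging at least 10 normalized counts were tested with limma 3.58.1 and a trend on the mean, on log2(normalized count + 1). P-values were adjusted by Benjamini and Hochberg over all tested genes, with a threshold of 0.05. Recovered reads were tested with edgeR 4.0.16 and DESeq2 1.42.0, which called 3 and 186 genes in male liver. R was 4.3.3, and Python 3.11.15 was used with NumPy 2.4.6, pandas 2.3.3 and matplotlib 3.10.9. The members and lists were chosen with earlier results of these data known. Named were the 10 members, other Mup symbols by range, up to 4 genes per list (called, then smallest p), profile neighbours and genes beside the cluster. Alternatives were the pseudocount, the filter, scaling without Mup reads, both count tests, a replicate block and left-out libraries. The code was tested on simulated data.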

Additional observations from a re-analysis of the deposited data

Results flagged for a closer look

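Among 48 groups of 4 or 5 libraries examined (each member in each liver group, and the Mup sum in each of the 8 groups), 5 had 1 library far from the others by Dixon's test, where chance gives about 5% of groups. In male control liver, library 2 was highest for Mup11 with 13694 normalized counts (the other 4 at 2446 to 5323), for Mup16 with 423 (110 to 200) and for Mup18 with 379 (27.5 to 99.9). In female control liver, library 1 was highest for Mup12 with 93.2 (54.2 to 64.6) and for Mup18 with 130 (50.4 to 73.3). Nicotine libraries 1 and 5 of male liver were not picked out this way, since there are 2 of them. The close copies may share reads, so these 5 are not independent.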

How the results depend on the processing

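Male liver gave 5 called genes, but 0 with a mean of 50 or more, 3 with edgeR, 186 with DESeq2, 0 with a replicate block and 0 to 16 leaving out 1 library. Female liver gave 301, 341 with a replicate block, 185 to 329 leaving out 1 library, and 181 without nicotine 5 and control 4, which hold muscle transcripts. The interaction gave 140, 255 with DESeq2, 97 with a replicate block, 86 without those 2 female libraries and 67 to 289 leaving out 1 library. The cause of these shifts was not tested. Equal replicate numbers did not pair samples (same-number correlations -0.13 to 0.08 in male and -0.09 to 0.07 in female liver; 0 of 5 and 1 of 5 nicotine libraries correlated best with their own number).

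Of 675 alternative values of the 30 member results, 657 kept direction and side of the threshold, 15 reversed and 3 became called. Without male nicotine 1 and 5, male log2 changes were 0.12 (Mup3), 0.057 (Mup11), 0.34 (Mup17), 0.26 (Mup16), 0.055 (Mup12), 0.35 (Mup18), 0.52 (Mup1) and 0.40 (Mup9), and the interaction 0.046 (Mup3), 0.60 (Mup21), 0.19 (Mup1) and 0.17 (Mup9). In female liver leaving out 1 library gave -0.018 (without control 3) to 0.17 for Mup3 and -0.40 to 0.11 (without control 4) for Mup20, which was 0.15 without control 4 and nicotine 5. The 3 new calls were Mup17 and Mup18 without female control 1 and Mup16 without female nicotine 1. Scaling without Mup reads moved the median of all male genes to 0.10 and reversed no member. Leaving out each control library, an alternative added after seeing the data, moved the Mup18 level of male over female controls between 0.893-fold and 2.09-fold. Members with 0 to 6 reads in a library are limited by depth.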
